A study of Mus musculus with 16 samples.

Results

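The comparison concerned whether a father's diet was followed by opposite changes in the liver and the white fat of his sons, and it drew on all 16 arrays of the series. Males of the C57BL/6J strain were fed chow or a diet with 45% lipids for 12 weeks from the age of 8 weeks and then mated with control females. Their male offspring were sampled at 14 weeks, and the sons of chow-fed fathers are called CT and the sons of obese fathers F1. Both tissues were taken from CT and from F1 sons, which gives 4 groups of 4 arrays. No genotype other than the strain is given, eWAT is the labels' name for the fat depot, and the labels do not give the sons' own diet, their fathers or litters, or whether liver and eWAT arrays came from the same animals. The p-values therefore measure the spread between arrays, and litter mates cannot be told apart from independent sons. For each gene the difference F1 minus CT in eWAT was subtracted from that in liver, which gives an interaction that is above 0 where the liver difference is the more positive one. Of 19505 genes with a symbol, 15935 were tested. Of these, 13342 had a mean at or above the dim limit in both tissues, and signs were compared over them. The limit is low, at the 25th percentile of the named probe sets, so a sign near it may carry no measured change. Opposite signs were found in 6529 of those 13342 genes.

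Liver and white fat handle fatty acids in complementary ways. Adipocytes store them as triglyceride and release them in fasting, and the liver oxidises, re-esterifies or exports what arrives. PPAR-alpha is the nuclear receptor that switches on the fatty acid oxidation genes of the liver, in mitochondria and peroxisomes, and PPAR-gamma is its counterpart in adipocytes. Both bind DNA as partners of the retinoid X receptor at repeats of a 6-base half-site.

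The tissues carried their own markers. The median of the adipocyte markers was 17.00 to 17.41 on the log2 scale in eWAT and 5.50 to 6.74 in liver, and hepatocyte markers stood at 19.80 to 19.92 in liver, near the top of the scale. The hepatocyte markers also separated the eWAT arrays. They stood at 8.23, 7.09, 13.67 and 13.72 in eWAT CT and at 11.63, 14.23, 10.81 and 15.12 in eWAT F1, and 21 of 21 of these markers were higher in F1. In liver, exocrine pancreas markers stood at 10.68 in F1 array 4 and at 4.03 to 4.52 in the other 7 arrays. Levels cannot be set exactly against each other across tissues, since the value distributions of liver and eWAT arrays differed by up to 1.71 between ranks and by at most 0.53 within a tissue, so the statements rest on differences within a tissue. In whole tissue, fewer cells of a type and less RNA per cell cannot be told apart.

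Opposite changes were no more frequent than shared ones over all genes. The 6529 genes with opposite signs were 48.9% of the 13342, and 6694 genes had the same sign. Across genes, which are not independent replicates, the liver and eWAT differences had a Pearson correlation of 0.063. By limma with Benjamini-Hochberg adjustment, 12 of 15935 genes, or 0.0753%, passed an adjusted p of 0.05 for the interaction, 7 with a positive and 5 with a negative value. At an unadjusted p of 0.05 the interaction held 1518 genes, and among the genes kept in both tissues it held 1318, or 9.88%. Of the 12 called genes, 7 had opposite signs in the tissues, which is 0.0525% of the genes kept in both. The number of calls moved with single arrays. Without liver F1 4 there were 22 called interactions and 14 opposed ones, and without eWAT F1 3 there were 28 and 18. Opposed calls numbered 11 without liver CT 1, 12 without liver F1 1, 11 without eWAT F1 4, 4 without eWAT F1 1, and 4 of 7 called interactions without eWAT CT 3. Without the 4 eWAT arrays highest in hepatocyte markers (CT 3, CT 4, F1 2 and F1 4) there were 175 called interactions and 94 opposed ones, which held all 12 and all 7 of the genes called with every array. The eWAT arrays left there were CT 1 and CT 2 against F1 1 and F1 3. Their hepatocyte markers still did not overlap, at 8.23 and 7.09 in CT and 11.63 and 10.81 in F1. That setting thus did not remove the difference in these markers. Within one tissue, limma called 23 of 15935 genes in liver (0.144%) and 0 in eWAT (0%). In eWAT 1302 of the 13342 genes kept in both tissues, or 9.76%, had an unadjusted p under 0.05.

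**Figure D1:**
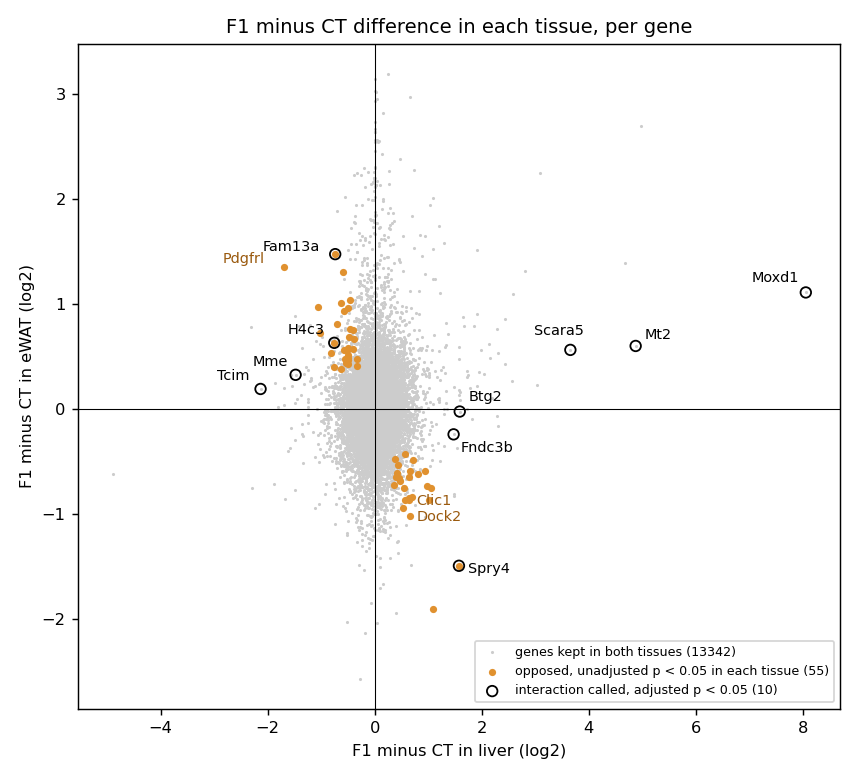
Each point is 1 of the 13342 genes kept in both tissues, with its F1 minus CT difference in liver (x axis, log2) and in eWAT (y axis, log2). Orange points are the 55 genes of opposite sign with an unadjusted p under 0.05 in each tissue, and circles are the 10 plotted genes whose interaction was called; Spry4 lies at 1.58 in liver and -1.49 in eWAT, and Fam13a at -0.74 and 1.48.

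Of the 7 opposed calls, 3 rested on both tissues, namely Spry4, H4c3 and Fam13a. Spry4 encodes Sprouty 4, an inhibitor of signalling from receptor tyrosine kinases to the MAP kinases. Its log2 level was 7.29, 6.23, 6.23 and 6.76 in liver CT against 7.66, 8.67, 8.61 and 7.87 in liver F1. In eWAT it was 10.38, 10.60, 10.75 and 10.19 in CT against 8.33, 9.20, 9.05 and 9.37 in F1. All 4 liver F1 arrays lay above all liver CT arrays, and all 4 eWAT F1 arrays lay below all eWAT CT arrays. The difference was 1.58 ± 0.31 (SE) in liver and -1.49 ± 0.24 in eWAT, that is 2.98-fold higher in one tissue and 2.81-fold lower in the other. The interaction of Spry4 was 3.07 ± 0.41 (SE; limma, adjusted p = 0.00416), and it passed in each of 33 settings tried, with a highest adjusted p of 0.021. In the separate fits of the tissues, the Spry4 difference did not pass in either (limma, adjusted p = 0.113 in liver and 0.365 in eWAT).

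H4c3, a gene for the core histone H4, ran the other way. It stood at 10.24, 10.35, 10.62 and 10.20 in liver CT and at 9.58, 9.45, 9.49 and 9.87 in liver F1. In eWAT the H4c3 values were 10.30, 10.30, 10.32 and 10.43 in CT and 11.03, 10.97, 11.04 and 10.84 in F1. The CT arrays of both tissues lay close together, and the F1 arrays departed from them downward in liver and upward in eWAT, with no overlap in either. The interaction of H4c3 was -1.39 ± 0.21 (SE; limma, adjusted p = 0.00957) and passed in 33 of 33 settings. Histone H4 has many near-identical genes, so the signal may be shared among copies.

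Fam13a, a gene abundant in adipocytes that has been linked to body fat distribution, was also lower in liver F1 and higher in eWAT F1. In eWAT its values were 14.74, 14.08, 14.35 and 15.32 in CT and 16.16, 16.10, 16.15 and 15.99 in F1, which do not overlap. In liver they were 9.86, 10.89, 11.08 and 10.88 in CT and 10.10, 9.95, 10.01 and 9.70 in F1. The liver groups overlap through CT array 1, which lay below 3 of the 4 F1 arrays. The interaction was -2.21 ± 0.38 (SE; limma, adjusted p = 0.0248), made of -0.74 in liver and 1.48 in eWAT. The call for Fam13a was lost without any one of liver CT 2, 3 or 4, liver F1 2 or 3, eWAT CT 2 or 3, or eWAT F1 1 or 2, where the adjusted p lay between 0.0581 and 0.0723, and with the hepatocyte level as a covariate in eWAT (0.0628) or without liver F1 3 and 4 together (0.102). With the array number as a fixed term the Fam13a call was also lost (limma, adjusted p = 0.0872).

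**Figure D2:**
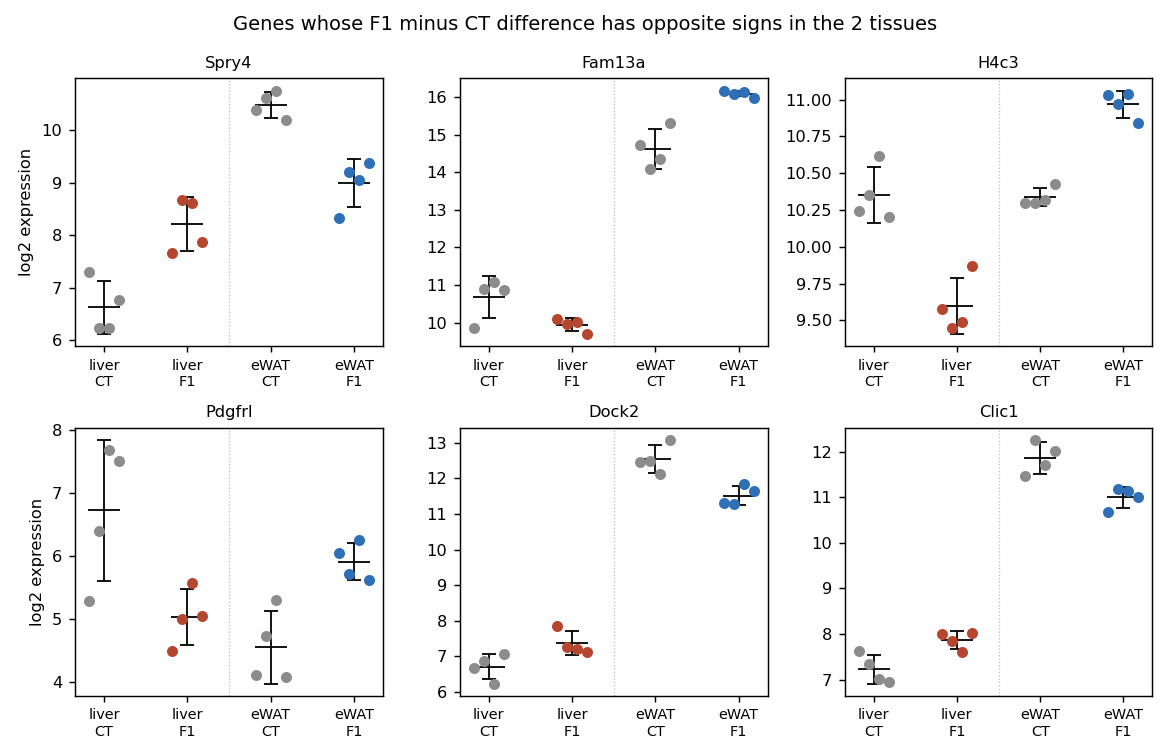
Log2 expression of 6 genes in the 16 arrays, by tissue and group; points are arrays, horizontal lines the means and bars the SD (n = 4). Spry4 and H4c3 show no overlap of CT and F1 in either tissue, Fam13a overlaps in liver through 1 CT array, and the interactions of Pdgfrl, Dock2 and Clic1 did not pass.

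In the other 4 opposed calls the interaction came from the liver. Fndc3b, a membrane protein known to act in fat cell differentiation, was 11.57, 11.24, 11.30 and 11.64 in liver CT and 12.80, 13.43, 12.77 and 12.65 in liver F1. The Fndc3b difference was 1.48 in liver and -0.24 ± 0.18 (SE) in eWAT, with an interaction of 1.72 (limma, adjusted p = 0.016). Btg2, which restrains cell division, was 7.49, 8.07, 7.89 and 7.83 in liver CT and 9.70, 9.38, 9.47 and 9.09 in liver F1. In eWAT its difference was -0.02 ± 0.19 (SE), so its opposite sign carried no measured change there (interaction 1.61, limma, adjusted p = 0.0232). Tcim, a small regulator of transcription and immune responses, stood at 10.63, 11.10, 10.12 and 10.93 in liver CT and at 8.30, 8.43, 9.15 and 8.37 in liver F1. Its difference was -2.13 in liver and 0.19 ± 0.18 (SE) in eWAT (interaction -2.33, limma, adjusted p = 0.00578). Mme, the peptidase neprilysin, was 12.12, 12.26, 12.61 and 12.00 in liver CT and 10.97, 10.93, 10.59 and 10.59 in liver F1. Its difference was -1.48 in liver and 0.33 ± 0.19 (SE) in eWAT (interaction -1.80, limma, adjusted p = 0.00853). In none of these 4 genes were the eWAT groups apart, while the liver groups did not overlap in any of them. The call for Btg2 was lost without any one of liver CT 3 or 4, liver F1 2 or 3, eWAT CT 1 or 3, or eWAT F1 1 or 2 (adjusted p 0.0512 to 0.0694) and with the hepatocyte covariate (0.0528), and that for Fndc3b without eWAT CT 3 (0.0557) or eWAT F1 1 (0.0506). The call for Mme was lost without liver F1 3 and 4 together (0.0625). With the array number as a fixed term the calls for Btg2 and Fndc3b were also lost (limma, adjusted p = 0.0909 and 0.0731).

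The remaining 5 called interactions were not oppositions. Moxd1, a relative of dopamine beta-hydroxylase, stood at 4.96 to 6.97 in liver CT and at 13.35 to 14.92 in liver F1, and its eWAT difference of 1.11 had the same sign (interaction 6.95, limma, adjusted p = 0.000111). Mt2, a metal-binding metallothionein, and Scara5, a ferritin receptor, also differed in the same direction in both tissues, by 4.88 and 3.66 in liver and by 0.60 and 0.56 in eWAT. The chemokine gene Cxcl1 (interaction 2.74) was above the dim limit in liver only. The mean of Mapk4, an atypical MAP kinase (interaction -2.02), was above this limit in eWAT only. There Mapk4 was 3.01 to 3.49 in CT and 4.53 to 5.89 in F1. All its eWAT CT arrays lay below the limit of 3.51, so Mapk4 was kept through the F1 arrays alone. The call for Cxcl1 was lost without any one of liver CT 4, liver F1 3, eWAT CT 2 or 3, or eWAT F1 1, and that for Mapk4 without eWAT CT 3 (limma, adjusted p = 0.051 to 0.0694 and 0.0557). The Mapk4 call was also lost with the 16 arrays quantile normalized together (interaction -1.51, adjusted p = 0.0885), without liver F1 3 and 4 (0.0625) and without all 5 arrays high in markers of another tissue (0.0544). With the array number as a fixed term the Mapk4 call was lost as well (limma, adjusted p = 0.0664).

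Below the adjusted threshold, 55 genes, or 0.412% of the genes kept in both tissues, had opposite signs and an unadjusted p under 0.05 in each tissue, against 90 genes with the same sign by the same rule. Of the 55, 25 were higher in liver F1 and lower in eWAT F1, with differences of 0.37 to 1.58 in liver and -1.91 to -0.42 in eWAT. The other 30 were lower in liver F1 and higher in eWAT F1, with differences of -1.69 to -0.33 in liver and 0.39 to 1.48 in eWAT. By another rule, 26 genes, or 0.195%, had F1 and CT arrays that did not overlap in either tissue with opposite signs, and 26 had the same pattern with the same sign.

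Among the genes higher in liver and lower in eWAT that did not pass, Dock2 activates the GTPase Rac in blood cells. It was 6.69, 6.86, 6.24 and 7.07 in liver CT and 7.87, 7.27, 7.20 and 7.14 in liver F1, and 12.47, 12.49, 12.12 and 13.07 in eWAT CT against 11.30, 11.29, 11.83 and 11.66 in eWAT F1. The groups of Dock2 did not overlap in either tissue, and its interaction was 1.67 (limma, adjusted p = 0.0746). Arhgap15, which switches Rac off, and Themis2, a signalling protein of B cells and macrophages, had differences of 0.81 and 0.95 in liver and of -0.62 and -0.59 in eWAT, without passing (interaction adjusted p = 0.126 and 0.169, limma). Clic1, a chloride channel protein found in many cells, differed by 0.64 and -0.86 (interaction adjusted p = 0.0657, limma). Dact2, an inhibitor of Wnt signalling, differed by 1.04 and -0.76, the magnesium transporter gene Slc41a2 by 0.98 and -0.73, and the monocarboxylate transporter gene Slc16a5 by 1.48 and -0.81. None of these interactions passed, and Slc16a5 is the one of the 7 with an unadjusted p above 0.05 in eWAT (0.0575 in the limma fit over all genes, n = 8). In eWAT the Slc16a5 mean was 4.24 in CT and 3.43 in F1, below the dim limit of 3.51, so it was kept there through CT.

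Among the genes lower in liver and higher in eWAT that did not pass, the difference was largest for Pdgfrl, a relative of the platelet-derived growth factor receptors. Its values were 5.29, 6.41, 7.69 and 7.52 in liver CT and 4.50, 5.01, 5.58 and 5.06 in liver F1, and 4.11, 4.74, 5.30 and 4.09 in eWAT CT against 6.06, 5.72, 6.26 and 5.62 in eWAT F1. The eWAT groups of Pdgfrl were apart and the liver groups overlapped, with an interaction of -3.04 ± 0.60 (SE; limma, adjusted p = 0.0746). Ppp1r3c, which brings protein phosphatase 1 to glycogen, differed by -1.07 in liver and 0.97 in eWAT. Mfsd4b1, of the major facilitator family of transporters, differed by -0.62 and 1.01, and Arv1, a membrane protein of sterol transport, by -1.01 and 0.73, both with no overlap in either tissue. The tight junction gene Tjp3 differed by -0.71 and 0.81, and Fbxl12os, an RNA gene named after its neighbour Fbxl12, by -0.59 and 1.30. The limma adjusted p of these 5 interactions lay between 0.102 for Mfsd4b1 and 0.220 for Ppp1r3c. In liver the Fbxl12os mean was 4.49 in CT and 3.90 in F1, just below the dim limit of 3.91. Of the rest of the 55, 4 are named here after their values were seen. Sirt3, the main mitochondrial deacetylase, differed by -0.33 in liver and 0.41 in eWAT, and Hsd11b1, which regenerates active glucocorticoid, by -0.51 and 0.58. Atp6v0d2, a subunit of the proton pump, differed by 1.08 and -1.91, and Tlr8, a receptor for single-stranded RNA, by 0.64 and -0.84.

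Gene lists for pathways and cell types were read by the median difference over their members kept in both tissues, as a description without a test. Over all 13342 genes kept in both tissues the median was -0.0025 in liver, 0 in eWAT and -0.0075 for the interaction, and 48.9% of them had opposite signs. Of 60 lists with at least 8 such members, 21 had medians of opposite sign and an interaction median of at least 0.25 in size, 15 of them lower in liver F1 and higher in eWAT F1 and 6 the other way. The interaction median kept its sign in each of 32 or 33 alternative settings for the lists described below, except the thermogenic and heat shock lists and the adipocyte and hepatocyte markers, which were not rerun. The medians of single tissues crossed 0 under some alternatives.

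**Figure D3:**
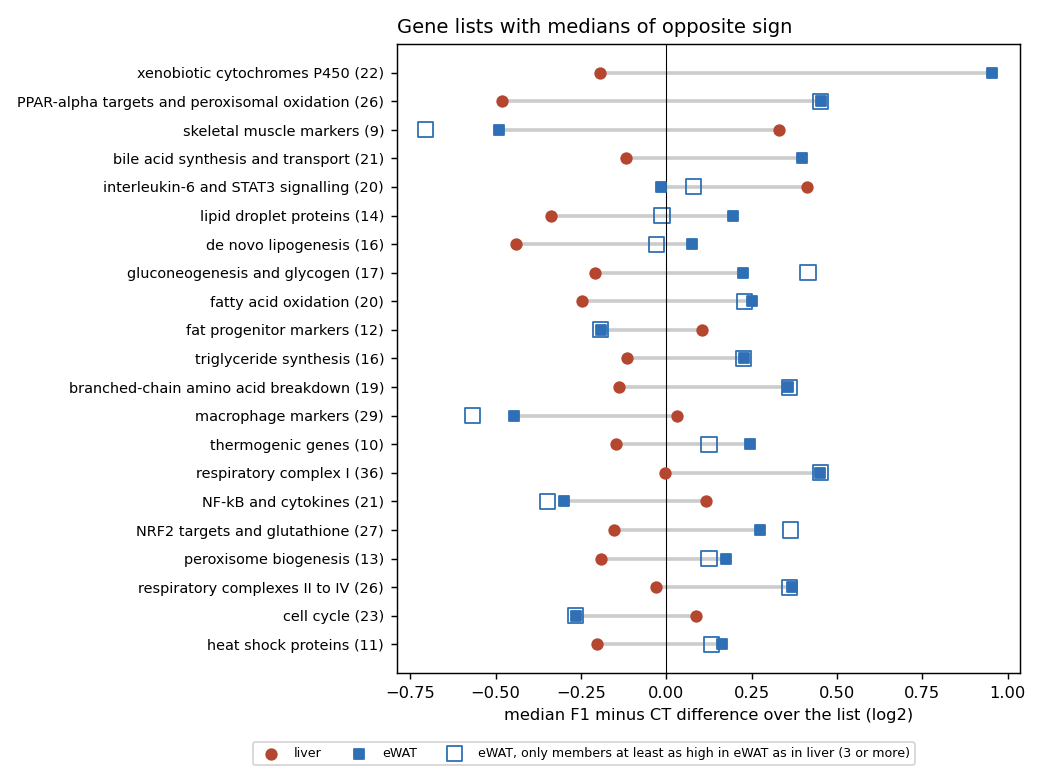
Median F1 minus CT difference (x axis, log2) in liver (red circles) and eWAT (blue squares) for the 21 gene lists with medians of opposite sign, with the number of members kept in both tissues in brackets. Open squares repeat the eWAT median for those members that were at least as high in eWAT as in liver; it stays near 0.45 for the PPAR-alpha targets and moves to -0.01 for the lipid droplet proteins.

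The PPAR-alpha list, with the enzymes of peroxisomal oxidation, had medians of opposite sign. Of its 26 members kept in both tissues, 20 had opposite signs and all 20 were lower in liver F1 and higher in eWAT F1. The median difference was -0.48 in liver and 0.45 in eWAT, with an interaction median of -0.88. No interaction in the list passed at the adjusted threshold, and 12 of the 26 had an unadjusted p under 0.05, against 9.88% of all genes kept in both tissues. The median level of the list was 14.00, 14.23, 14.44 and 14.19 in liver CT and 12.88, 12.72, 12.22 and 13.47 in liver F1, with no overlap. In eWAT it was 9.42, 9.55, 10.13 and 9.90 in CT and 10.16, 10.66, 9.6 and 10.99 in F1, and the groups overlapped. There 5 of the 26 members had an unadjusted p under 0.05, against 9.76% of all genes kept in both tissues. The eWAT level of the list also moved with the hepatocyte markers, though not in step. It was 9.42 to 9.6 in the 3 arrays where these stood at 7.09 to 10.81. It was 10.66 and 10.99 in the 2 arrays where they stood at 14.23 and 15.12. Between these, it was 10.16 in F1 1 with the markers at 11.63, but 10.13 and 9.90 in CT 3 and CT 4 with the markers at 13.67 and 13.72. With the hepatocyte level as a covariate, the eWAT median of the list went from 0.45 to 0.17.

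Among its members, Retsat, an oxidoreductase of retinol known as a PPAR target, was 14.33, 14.55, 14.95 and 14.52 in liver CT and 13.20, 13.25, 12.84 and 13.75 in liver F1. The difference of Retsat was -1.33 ± 0.21 (SE) in liver and 0.34 ± 0.29 in eWAT. Pdk4, which shuts off pyruvate oxidation in fasting, was 7.66, 8.09, 8.23 and 8.78 in liver CT and 6.79, 6.25, 7.53 and 6.75 in liver F1. Its difference was -1.36 ± 0.30 (SE) in liver and 0.58 ± 0.36 in eWAT. Acaa1b, a peroxisomal thiolase, differed by -1.37 and 0.14. Acot2, a mitochondrial thioesterase, was the one member with an unadjusted p under 0.05 in each tissue, at -0.47 ± 0.18 (SE) and 0.69 ± 0.23. The interactions of these 4 genes did not pass (limma, adjusted p = 0.139 for Retsat to 0.203 for Acot2). The members ranged from -4.89 for Cyp4a14 to 0.38 for Slc27a1 in liver. Ppara itself, the gene of the receptor, differed by 0.29 and 0.97, with the same sign in both tissues.

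**Figure D4:**
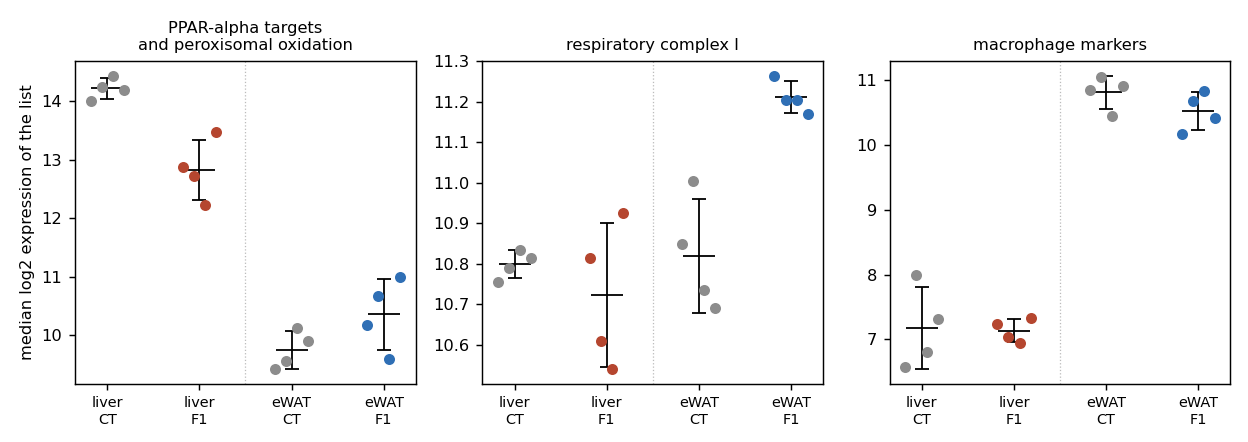
Median log2 expression of 3 gene lists in the 16 arrays, by tissue and group, each panel with its own scale; points are arrays, lines the means and bars the SD (n = 4). The PPAR-alpha list separates CT from F1 in liver only, complex I separates them in eWAT only, and the macrophage list overlaps in both tissues.

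The enzymes of mitochondrial fatty acid oxidation followed the same pattern at a smaller size. Of 20 members, 17 had opposite signs, 16 of them lower in liver F1 and higher in eWAT F1. The medians were -0.25 in liver and 0.25 in eWAT, and 9 of the 20 had an interaction with an unadjusted p under 0.05, none passing after adjustment. Cpt2, which releases fatty acids from carnitine inside the mitochondrion, was 12.65, 12.81, 12.44 and 12.61 in eWAT CT and 13.81, 13.09, 13.27 and 13.02 in eWAT F1. In liver the Cpt2 groups lay closer, with a difference of -0.14 ± 0.13 (SE) against 0.67 ± 0.20 in eWAT. Etfdh, which passes electrons from oxidation to the respiratory chain, was 15.86, 15.79, 15.66 and 15.39 in liver CT and 15.15, 14.89, 15.14 and 15.19 in liver F1. Its difference was -0.58 ± 0.15 (SE) in liver and 0.10 ± 0.14 in eWAT. Hadhb, a subunit of the trifunctional protein, differed by -0.40 and 0.24, and Eci2, an enoyl-CoA isomerase, by -0.49 and 0.26. Thus single members departed in one tissue or the other, and none of the 20 had an unadjusted p under 0.05 in both. The one member with the reverse opposition was Cpt1a, the enzyme that admits fatty acids to the liver mitochondrion, at 0.30 and -0.04.

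PPAR-gamma and PPAR-alpha sites are built from the half-site AGGTCA. This motif, or TGACCT on the other strand, was searched in the 250 bases before each start site in the RefSeq promoter windows (GRCm38.p6). It was present for 4 of 18 PPAR-alpha list genes with a window (22.2%) and for 4 of 16 oxidation genes (25%), against 4260 of 27025 genes overall (15.8%). The stretches around it are shown for 5 of those 8 genes, the 4 that were lower in liver and higher in eWAT and Cpt1a, which went the other way, with the half-site in capitals, each read 5′ to 3′ on the gene's own strand.
Fabp1: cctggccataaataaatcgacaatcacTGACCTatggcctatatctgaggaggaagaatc
Acot4: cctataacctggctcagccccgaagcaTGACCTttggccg
Acadm: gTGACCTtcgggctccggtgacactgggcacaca
Acadvl: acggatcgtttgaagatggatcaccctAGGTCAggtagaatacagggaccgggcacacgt
Cpt1a: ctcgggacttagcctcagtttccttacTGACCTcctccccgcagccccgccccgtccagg
In the order given, these lie at chr6:71199785-71199844 (+ strand), chr12:84038339-84038378 (+ strand), chr3:153944860-153944893 (- strand), chr11:70015483-70015542 (- strand) and chr19:3323180-3323239 (+ strand). Fabp1, the fatty acid binding protein of the liver, differed by -0.44 in liver and 1.73 in eWAT, and Acot4, a peroxisomal thioesterase, by -0.43 and 0.46. The median eWAT difference of the hepatocyte markers was 1.88, and whether the eWAT difference of Fabp1 follows these markers was not tested. Acadm and Acadvl, the medium-chain and very-long-chain dehydrogenases, differed by -0.43 and 0.06 and by -0.29 and 0.26. The eWAT differences of Acadm and Cpt1a were small, so their opposite signs rest on liver. The half-site genes not shown, Creb3l3, Slc27a2 and Echs1, had the same sign in both tissues. A half-site thus stood before genes of opposite and of same sign.

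Other lists of lipid handling had medians in the same sense. In the triglyceride synthesis list 16 of 16 members were higher in eWAT F1, with medians of -0.11 in liver and 0.23 in eWAT. In liver 9 members were lower in F1 and 7 higher, and the list's mean level was 14.10 in CT and 14.11 in F1. The liver median was -0.003 at its highest under the alternatives, so a liver difference of the list was hardly measured. Gpd1, which makes the glycerol phosphate backbone, was 16.34, 16.22, 16.26 and 16.37 in liver CT and 15.48, 15.87, 15.70 and 16.17 in liver F1, and differed by -0.49 in liver and 0.28 in eWAT. Mogat1, an acyltransferase of monoacylglycerol, differed by -0.32 and 0.68, Agpat3, of phosphatidic acid synthesis, by -0.26 and 0.19, and Dgat1, which adds the last fatty acid, by -0.11 and 0.66. In the lipid droplet list 9 of 14 members had opposite signs, against 48.9% of all genes kept in both tissues. Of the 9, 8 were lower in liver F1. Hsd17b11, a droplet dehydrogenase, was 15.52, 15.78, 15.68 and 15.41 in liver CT and 14.19, 14.66, 14.28 and 14.78 in liver F1, with an interaction of -1.34 (limma, adjusted p = 0.0602). Plin5, the perilipin of oxidative tissues, was 4.32, 4.35, 4.81 and 4.80 in eWAT CT and 5.22, 5.65, 5.41 and 5.30 in eWAT F1, and differed by 0.82 there and by -0.51 in liver. Plin4, the adipocyte perilipin, differed by -1.02 and 0.25, and Fitm2, which partitions fat into droplets, by -0.10 and 0.70. Among the 10 droplet members at least as high in eWAT as in liver, the eWAT median was -0.01 and 5 had opposite signs, 4 of them lower in liver F1 and higher in eWAT F1.

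De novo lipogenesis, the making of fatty acids from carbohydrate, differed in liver more than in eWAT. Its medians were -0.44 in liver and 0.08 in eWAT. Opposite signs were found in 7 of 16 members, against 48.9% of all genes kept in both tissues. Fasn, the fatty acid synthase, was 15.56, 15.87, 14.55 and 15.29 in liver CT and 13.05, 13.92, 14.54 and 14.33 in liver F1, a difference of -1.36 ± 0.36 (SE), against -0.14 ± 0.32 in eWAT. Me1, the malic enzyme, differed by -1.24 and -0.06, Elovl5, an elongase, by -0.92 and 0.20, and Pnpla3, a lipase of the same regulon, by -0.86 and 0.05. Without eWAT F1 1 the eWAT median of the list was -0.02, and its interaction median went from -0.60 to -0.33. The size of the interaction thus depended in part on that eWAT array. The gluconeogenesis and glycogen list had medians of -0.21 and 0.23, with 10 of 17 members opposed, 9 of them lower in liver F1. Beside Ppp1r3c it held Pcx, pyruvate carboxylase, at -0.17 in liver and 0.49 in eWAT, Pygl, the liver glycogen phosphorylase, at -0.33 and 0.23, and Ugp2, which makes UDP-glucose, at -0.40 and 0.21. The branched-chain amino acid list had medians of -0.14 and 0.36, with 14 of 19 members opposed, 13 of them lower in liver F1. Bckdha, a subunit of the rate-setting dehydrogenase, was 11.97, 11.61, 11.76 and 11.67 in eWAT CT and 12.60, 12.37, 12.22 and 12.07 in eWAT F1. It differed by -0.01 in liver and 0.56 in eWAT. Ivd, Mccc2 and Aldh6a1, enzymes further down the pathway, differed by -0.15, -0.15 and -0.32 in liver and by 0.57, 0.51 and 0.36 in eWAT.

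Mitochondrial and peroxisomal lists were described by their counts. All 36 subunits of respiratory complex I were higher in eWAT F1, with a median of 0.45 and 16 of them at an unadjusted p under 0.05, against 9.76% of all genes kept in both tissues. In liver 18 were higher and 18 lower, with a median of -0.005 that was at or above 0 under 8 of 33 alternatives, so that the interaction median of -0.40 came from eWAT. The list's level was 10.85, 11.01, 10.74 and 10.69 in eWAT CT and 11.26, 11.20, 11.20 and 11.17 in eWAT F1. In complexes II to IV 24 of 26 members were higher in eWAT F1 and 14 of 26 were lower in liver F1, with a liver median of -0.03 that was at or above 0 under 2 of 33 alternatives. In peroxisome biogenesis 12 of 13 members had opposite signs, 11 of them lower in liver F1, with medians of -0.19 and 0.17. The NRF2 and glutathione list had 16 of 27 opposed (medians -0.15 and 0.28), the thermogenic list 5 of 10 (-0.15 and 0.24) and the heat shock list 5 of 11 (-0.20 and 0.16). Over all genes kept in both tissues 48.9% were opposed, so the thermogenic and heat shock counts were near that share.

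Genes typical of liver formed a further group. The xenobiotic P450 list, named for the cytochrome oxidases that clear drugs and foreign compounds, also held the receptor gene Nr1i2, at 0.02 in eWAT. Of its 22 members kept in both tissues, 22 were higher in eWAT F1 and 16 lower in liver F1. The list's medians were -0.19 in liver and 0.95 in eWAT. The largest interaction was that of Cyp2f2, which was 18.84 to 19.09 in liver CT and 18.82 to 19.14 in liver F1. In eWAT Cyp2f2 was 8.43, 7.98, 12.06 and 11.80 in CT and 14.85, 13.23, 11.20 and 13.10 in F1. Cyp2e1, which oxidises ethanol, differed by -0.06 and 0.92, Cyp2c54 by -0.46 and 1.04, and Cyp2d22 by -0.42 and 0.38. The bile acid list had medians of -0.12 and 0.40. In it 11 of 21 members had opposite signs, against 48.9% of all genes kept in both tissues. There Slco1b2, the liver's uptake transporter, was 3.63, 2.96, 7.99 and 7.37 in eWAT CT and 5.94, 9.02, 6.06 and 9.94 in eWAT F1. Abcc3 and Abcc4, which export bile acids to the blood, had the same sign in both tissues, at -0.90 and 0.73 in liver and -0.18 and 0.12 in eWAT. Abcc3 was the one member of the list whose interaction had an unadjusted p under 0.05. Hsd3b7, a synthesis enzyme, differed by -0.36 and 0.14.

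The P450 and bile acid lists moved with the hepatocyte markers from one eWAT array to the next, as the PPAR-alpha list did in part and over a narrower range. The P450 level was 4.94 and 4.57 in the eWAT CT arrays where the hepatocyte markers stood at 8.23 and 7.09, and 8.60 and 8.30 where they stood at 13.67 and 13.72. No member of the P450 list was as high in eWAT as in liver. With the hepatocyte level as a covariate in eWAT, the interaction median went from -1.16 to -0.01 for the P450 list and from -0.72 to -0.04 for the bile acid list. With the covariate the eWAT medians of both lists were below 0, at -0.14 and -0.05. Without eWAT CT 1, CT 2 or F1 4 the P450 interaction median was -0.72, -0.66 and -0.64, and the bile acid one -0.47, -0.46 and -0.32. With the covariate the interaction median was -0.31 for gluconeogenesis and glycogen, where it had been -0.57, and it was -0.76 for the PPAR-alpha list, -0.57 for fatty acid oxidation, -0.46 for triglyceride synthesis, -0.48 for branched-chain amino acid breakdown and -0.51 for complex I. For members at least as high in eWAT as in liver, it was -0.88 over 7 PPAR-alpha genes, -0.48 over 8 oxidation genes and -0.49 over 14 branched-chain genes. Without the 4 eWAT arrays highest in hepatocyte markers, CT 3, CT 4, F1 2 and F1 4, the P450 median was -1.24, and the hepatocyte level still did not overlap between the arrays left, at 7.09 and 8.23 in CT and 10.81 and 11.63 in F1.

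**Figure D5:**
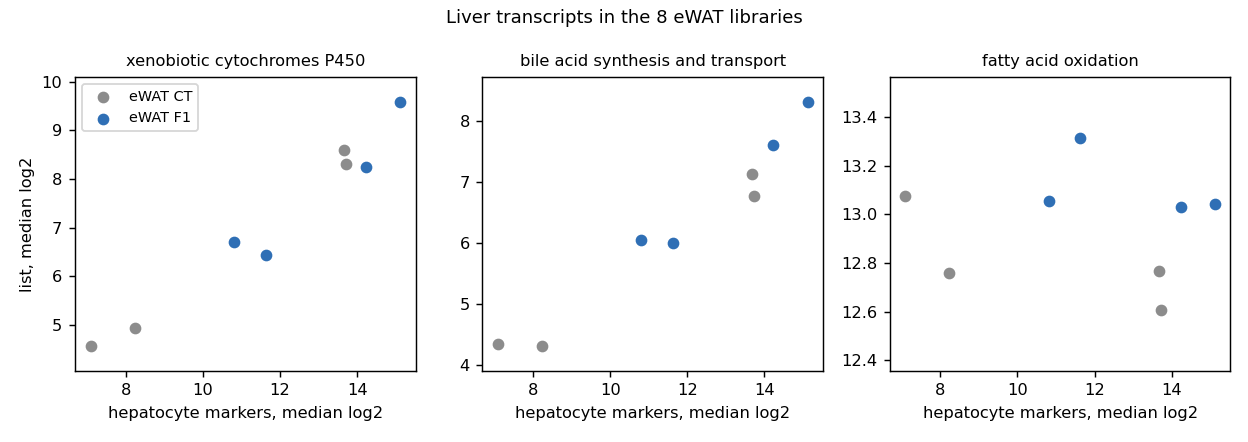
Median log2 level of 3 gene lists (y axis) against the median log2 level of the hepatocyte markers (x axis) in the 8 eWAT arrays, grey for CT and blue for F1. The P450 and bile acid lists climb with the hepatocyte markers across both groups, while the oxidation list stays between 12.61 and 13.31.

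In the opposite sense, higher in liver F1 and lower in eWAT F1, stood lists of signalling and of cell types. The interleukin-6 and STAT3 list, a cytokine pathway that drives the acute-phase response of the liver, had medians of 0.41 in liver and -0.01 in eWAT. Its members were higher in liver F1 in 15 of 20 cases, and 9 were opposed, against 48.9% of all genes kept in both tissues. Pim1, a kinase induced by STAT3, rose in liver, from 9.28, 8.99, 9.29 and 9.85 in CT to 11.29, 11.41, 10.93 and 11.44 in F1 (difference 1.92, limma, adjusted p = 0.0106), and differed by 0.23 in eWAT. Stat3 itself rose by 1.35 in liver (limma, adjusted p = 0.0346), and its eWAT difference was 0. Bcl3, a coactivator of NF-kB, had opposite signs, at 10.30, 9.79, 10.06 and 9.38 in liver CT, 10.62, 11.07, 10.52 and 10.71 in liver F1, 8.07, 7.84, 7.90 and 7.50 in eWAT CT and 6.69, 7.74, 6.80 and 7.75 in eWAT F1. Its difference was 0.85 and -0.58 (interaction adjusted p = 0.199, limma). Junb, a transcription factor of the AP-1 family, differed by 1.57 in liver and by 0.14 in eWAT. The list's eWAT median was at or above 0 under 5 of 33 alternatives, so that its interaction came from liver.

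Macrophage markers were lower in eWAT F1 in 26 of 29 cases, with a median of -0.45, and 10 of the 29 had an unadjusted p under 0.05 there, against 9.76% of all genes kept in both tissues. In liver 15 were higher and 14 lower, with a median of 0.03 that was at or below 0 under 5 of 33 alternatives. Of the 29, 12 had opposite signs and 14 were lower in both tissues. Liver differences ranged from -1.34 for Marco, a scavenger receptor, to 0.60 for Cd163, another one, and eWAT differences from -1.25 for the nucleotide receptor gene P2ry6 to 0.31 for Cd163. The list's level was 10.45 to 11.05 in eWAT CT and 10.16 to 10.83 in eWAT F1, which overlap. The NF-kB and cytokine list had medians of 0.11 and -0.30, with 8 of 21 opposed, against 48.9% of all genes kept in both tissues. In eWAT 13 of its 21 members were lower in F1. Its median level there went the other way, without overlap. It was 8.80, 9.12, 9.23 and 9.27 in CT and 10.01, 9.54, 9.79 and 9.72 in F1. The direction of this list in eWAT thus depended on how its median was taken. The cell cycle list had medians of 0.09 and -0.26, with 16 of 23 opposed and 13 of these higher in liver F1. Of the 23, 2 had an interaction with an unadjusted p under 0.05 (limma), against 9.88% of all genes kept in both tissues. Its level was dim in liver, at 4.80 to 5.07 in CT and 4.79 to 5.11 in F1. In eWAT it was 5.72 to 6.72 in CT and 5.69 to 6.32 in F1, so the groups overlapped in both tissues. The interaction median of the NF-kB list, 0.39, was 0.25 without eWAT CT 1, 0.26 without eWAT CT 2, 0.20 without eWAT F1 4 and 0.20 with the hepatocyte covariate. That of the cell cycle list, 0.34, was 0.21 without liver F1 1, 0.52 without eWAT CT 3 and 0.16 without eWAT CT 4, and the liver median of that list was at or below 0 without liver F1 1 or F1 3. Fat progenitor markers were lower in eWAT F1 in 11 of 12 cases and higher in liver F1 in 10. In liver they were dim, with a list level of 4.755 to 5.145 in CT and 4.805 to 5.34 in F1. These overlap and lie not far above the dim limit of 3.91, which limits what the liver direction can show. Bmp3, a signal of adipose precursors, had the widest eWAT difference, at 12.11, 12.48, 12.32 and 11.75 in eWAT CT and 9.12, 9.77, 11.14 and 11.83 in eWAT F1. The other named markers, Wnt2, Ebf2 and Icam1, differed by -0.47, -0.19 and -0.35 in eWAT and by 0.11, 0.38 and 0.29 in liver. Wnt2 was 3.29 to 3.55 in eWAT F1, around the dim limit of 3.51 there.

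Skeletal muscle markers were near the floor of the scale in both tissues. Of 18 on the array, 9 were kept in both tissues, with medians of 0.33 in liver and -0.49 in eWAT. The liver difference came from 2 arrays, since the list's level was 4.70 and 4.62 in liver F1 1 and 2 and 3.77 to 3.96 in the other 6 liver arrays. Atp2a1, the calcium pump of fast muscle, was 5.23, 5.48, 4.48 and 4.0 in liver F1 and 4.03 to 4.23 in liver CT. In eWAT Myh4, a fast myosin, was 6.19, 4.78, 4.34 and 7.83 in CT and 4.06 to 4.66 in F1. Mylpf, a myosin light chain, and Ttn, titin, differed by 0.43 and 0.80 in liver and by -0.97 and -0.20 in eWAT, and no interaction in the list passed. In liver CT Myh4 was 3.46 to 3.79, below the dim limit of 3.91, and it was kept there through F1 arrays 1 and 2, at 5.07 and 4.71. In eWAT F1 Mylpf was 3.03 to 3.50, below the limit of 3.51, and it was kept there through CT. The list's medians thus rest in part on members that passed the filter through the group where they were high. The interaction median of the list, 0.82, was 0.49 without eWAT CT 2.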

How the data were processed

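RNA from frozen liver and eWAT was hybridised to Affymetrix arrays, 16 in all. The authors deposited log2 values per probe set, made with the Transcriptome Analysis Console 4.0 and RMA per the submitters' processing notes; the genome build is not given in the sources used here. The distributions are alike within a tissue and not between tissues. Probe sets were named through the platform annotation (19572 of 22206 had 1 symbol, 2634 had none), and the brightest was taken per symbol. A gene was kept where its mean reached the 25th percentile of the named probe sets in at least 1 tissue (3.91 in liver, 3.51 in eWAT). The interaction was fitted over all 16 arrays, and each tissue over its 8, by limma's lmFit and eBayes (version 3.58.1, R 4.3.3), with Benjamini-Hochberg adjustment and calls at 0.05. The procedure was tested on simulated data. The number of arrays, 4 per group, limits the precision.

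Genes were named by rule: opposed calls, filled up to 10 per direction with the smallest interaction p among opposed genes of at least 1.5-fold in each tissue; up to 4 other calls per direction; and up to 4 members by interaction p in each of 12 lists with opposite medians, at least 8 members and an interaction median of at least 0.25. The lists and members were chosen with earlier results of these data known. Of 1555 list entries, 142 were not matched or were repeated. Members typical of fat were those whose mean in eWAT was at least that in liver, a comparison across separately scaled tissues. Alternatives varied the filter, the spread, the normalization, the probe sets, the block and the arrays used.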

Additional observations from a re-analysis of the deposited data

Results flagged for a closer look

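For 12 genes the F1 minus CT difference in liver and that in eWAT differed by the interaction test (limma, adjusted p under 0.05). The values, liver difference minus eWAT difference on the log2 scale, were 3.07 for Spry4, 1.72 for Fndc3b, 1.61 for Btg2, -2.33 for Tcim, -1.80 for Mme, -1.39 for H4c3, -2.21 for Fam13a, 6.95 for Moxd1, 4.28 for Mt2, 3.09 for Scara5, 2.74 for Cxcl1 and -2.02 for Mapk4.

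In 17 of 348 groups of 4 arrays (4.89%), 1 array stood apart from the other 3, a share that chance alone gives for about 1 group in 20. In liver these were Arhgap15 in CT 4 at 6.28 (others up to 5.79), Tcim in F1 3 at 9.15 (others up to 8.43), Fam13a in CT 1 at 9.86 (others from 10.88), Cxcl1 in CT 4 at 4.73 (others from 5.57), Cyp2e1 in CT 2 at 19.93 (others 19.92) and Etfdh in F1 2 at 14.89 (others from 15.14). Also in liver, the median level of the fatty acid oxidation list was 13.61 in CT 3 (others up to 13.12), and that of the hepatocyte markers was 19.92 in CT 4 (others 19.91). In eWAT CT, H4c3 was 10.43 in array 4 (others up to 10.32), Etfdh 13.19 in array 1 (others up to 12.98) and Ebf2 11.75 in array 2 (others from 12.21). In eWAT F1, array 1 stood apart for Slc16a5 at 4.48 (others up to 3.17), for Abcc3 at 11.60 (others from 12.53) and for the level of the fatty acid oxidation list at 13.31 (others up to 13.06). Wnt2 was 3.55 in eWAT F1 3 (others up to 3.31), Mt2 was 15.26 in eWAT F1 4 (others up to 14.49), and Mogat1 was 9.12 in eWAT F1 4 (others from 10.24).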

How the results depend on the processing

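The interaction kept its sign under every alternative run for the counts, list medians and named genes recomputed, while medians of single tissues did not: with the hepatocyte covariate the eWAT median was -0.14 for the P450 list and -0.05 for the bile acid list, the liver median of complex I reached 0.04, and that of the cell cycle list reached -0.02. Leaving out 1 array at a time gave 7 to 28 called interactions, 4 to 18 opposed calls and 38 to 62 opposed genes with an unadjusted p under 0.05 in each tissue. Called interactions and opposed calls numbered 32 and 22 with a mean-variance trend and robust settings, 22 and 14 without liver F1 4, the array high in pancreas markers, 175 and 94 without the 4 eWAT arrays high in hepatocyte markers, and 146 and 76 without all 5. Without those 4, the hepatocyte level still did not overlap between the eWAT CT and F1 arrays left. Among list medians of the interaction, de novo lipogenesis moved to -0.998 without those 5 arrays, lipid droplet proteins to -0.42 with the hepatocyte covariate and to -0.32 over members at least as high in eWAT as in liver, and skeletal muscle markers to 1.28 without liver F1 3 and 4 and to 1.17 over members at least as high in eWAT. Without the 4 eWAT arrays the macrophage median moved to 0.65 and the NF-kB one to 0.62, and without liver F1 3 and 4 the NF-kB median moved to 0.24 and the lipogenesis one to -0.94. The causes were not tested. The covariate, the split by tissue level and the setting without liver F1 3 and 4 were chosen after seeing the data. Same-numbered liver and eWAT arrays had deviations that correlated at 0.0119 to 0.0472 in 8 pairs, all above 0 and none over 0.1. Of the 8, 6 correlated best with their own number. Since no correlation reached 0.1, the number was not used as a pair in the main fit. Whether the number marks an animal or a batch was not tested, and the labels do not say. With the number as a random replicate block there were 13 called interactions and 8 opposed calls, and with it as a fixed replicate block 9 and 5, with adjusted p of 0.0872 for Fam13a, 0.0909 for Btg2, 0.0731 for Fndc3b and 0.0664 for Mapk4. Leaving out arrays high in male tract, skeletal muscle or (in liver) adipocyte markers, or eWAT arrays high in pancreas markers, was not run, since no array stood 1 log2 unit above its tissue's median. Signals near the floor, as for skeletal muscle markers and, in liver, for fat progenitor markers and the cell cycle list, limit what a difference there can show. So do signals near the top, as for hepatocyte markers in liver.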

Other observations

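Adipocyte markers had 7 of 14 members of opposite sign, against 48.9% of all genes kept in both tissues. Their medians were -0.02 in liver and 0.12 in eWAT. Hepatocyte markers had a median of 0 in liver, where they lay at the top of the scale, and of 1.88 in eWAT. Cholesterol synthesis is named here after its values were seen: its interaction median of 0.38 came from a liver median of 0.36, and its eWAT median was of opposite sign under 9 of 32 alternatives.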
